A study of Mus musculus with 34 samples.

Results

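The BCL2 family decides whether a cell opens its mitochondrial outer membrane and enters apoptosis, and 10 of its genes were read here in mouse cumulus cells (CCs), the granulosa cells that surround the oocyte. The genes were chosen by symbol and not by any measured value, though earlier results of these data were known. They comprised 3 survival genes (Bcl2, Bcl2l1, Mcl1) and 7 death genes (Bax, Bak1, Bad, Bid, Bcl2l11, Bbc3, Pmaip1), out of 25965 entries in the table of counts, and each symbol was found in 1 entry. As background, the survival proteins hold Bax and Bak1 in check, Bax and Bak1 form the pores through which cytochrome c leaves the mitochondrion, and the BH3-only proteins (Bad, Bid, Bcl2l11, Bbc3, Pmaip1) carry stress signals that relieve the survival proteins or activate the pore formers. Much of this control acts on the proteins, through cleavage, phosphorylation and rapid turnover, which transcript counts do not measure. In the ovary, granulosa cell apoptosis is known as the main route by which follicles are lost, and Bax is among the genes best known for it.

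All mice were C57BL/6J females aged 8 weeks at the start, and CCs were obtained after superovulation. For hyperleptinemia, injections were given intraperitoneally for 16 days, either with saline (the group 16 C, with 3 libraries) or with leptin at a daily dose of 100 μg (the group 16 L, with 5 libraries). In the diet-induced obesity protocol mice were fed chow diet or high-fat diet, with 11% and 58% of energy from fat in the labels, for 4 weeks (4-week CD, n = 5, and 4-week HFD, n = 5) or 16 weeks (16-week CD, n = 6, and 16-week HFD, n = 7). A further 3 libraries came from mice that were labelled low weight gainers on 16 weeks of HFD. Each library was made from about 50 cells, which the labels trace to 1 cumulus-oocyte complex and the methods of the study to 1 animal, so a group samples few follicles or mice. The comparisons ask how leptin excess and the duration and outcome of the diet bear on CC transcripts.

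The 34 libraries held 1104611 to 13207018 counts each. Levels are given as normalised CPM, that is, counts relative to the library total (CPM), scaled by TMM factors over all 34 libraries. Granulosa genes were read in every library, with Inha, the most abundant of the listed markers, between 285 and 1085 CPM. Foxl2 and Fshr were at 0.60 CPM in their lowest libraries, and Cyp19a1 had a read in 32 of the 34 libraries. A principal component analysis of the other genes placed all 10 libraries of the 4-week diets, 4 of the 5 16 L libraries and 16-week CD replicates 1 and 2 on one side of the first component (16 libraries), and all 16 C, 16-week HFD and low weight gainer libraries with the rest on the other (18 libraries). 16 L replicate 18 stood apart from its group, since its cumulus expansion markers summed to 3.59 CPM and its oviduct markers, led by Ovgp1, to 34122 CPM and its red blood cell markers to 11055 CPM. 4-week HFD replicate 5 had an oocyte marker sum of 305 CPM. Oviduct and red blood cell markers summed to 560 and 180 CPM in 16-week HFD replicate 10, and to 303 and 90.3 CPM in low weight gainer replicate 22. In bulk samples, fewer cells of a type and less RNA per cell cannot be told apart.

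The 10 genes spanned a wide range of levels, and the pore former Bax and the survival gene Mcl1 led it. Per kilobase of exon (GENCODE M21), Bax averaged 69.3 ± 27.4 and Mcl1 47.4 ± 21.4 CPM per kb (SD, n = 34). Bad followed with 8.36, Bcl2l1 with 7.13, Bid with 5.00, Bak1 with 3.16, Bcl2l11 with 2.57, Bbc3 with 1.57, Pmaip1 with 0.69 and Bcl2 with 0.34 CPM per kb. Neighbours in this order often changed places between libraries. Bax lay above Mcl1 in 22 of 34 libraries, Bad above Bcl2l1 in 22, Bcl2l1 above Bid in 22, and Bak1 above Bcl2l11 in 14, whereas Mcl1 lay above Bad in 33 and Bcl2l11 above Bbc3 in 30. Bcl2, the founding survival gene of the family, was thus the lowest of the 10 by mean level per kb, and had under 10 counts in 18 of 34 libraries. Pmaip1 had under 10 counts in 23 libraries, Bbc3 in 16 and Bak1 in 11, while the other 6 genes never fell below 10 counts.

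**Figure D1:**
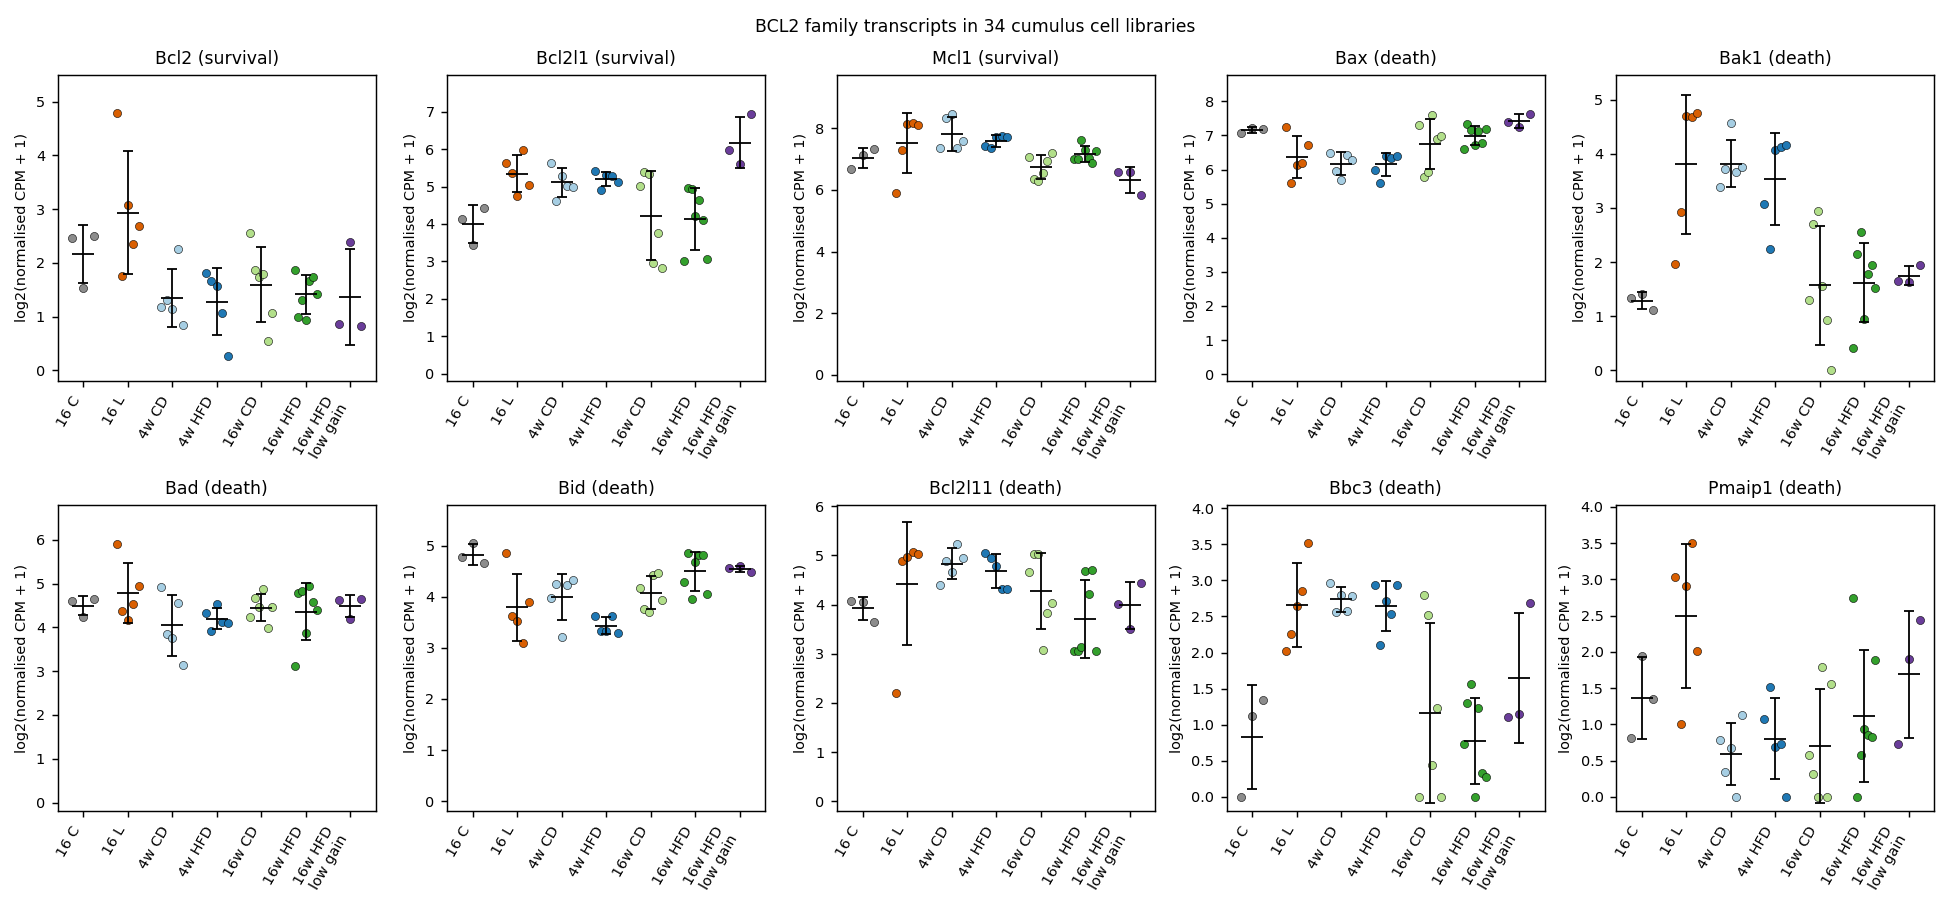
Levels of the 10 genes as log2(normalised CPM + 1), 1 panel per gene, 1 point per library in 7 groups (4w and 16w stand for weeks of diet, low gain for low weight gainers), with horizontal bars for the mean and error bars for the SD. Bak1 and Bbc3 sit high in both 4-week groups and in 16 L, Bcl2l1 is highest in the low weight gainers, and 1 library of 16 L, replicate 18, lies apart for Bcl2, Bad and Bcl2l11.

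The genes also differed in how their levels moved between groups. The largest ratio of the highest to the lowest group mean was 11.8 for Bak1, followed by 10.2 for Pmaip1, 6.83 for Bbc3, 5.80 for Bcl2 and 4.96 for Bcl2l1. It was 2.92 for Mcl1, 2.79 for Bid, 2.41 for Bax, 2.01 for Bcl2l11 and 1.73 for Bad. The widest ratios therefore belonged to genes of low counts and to Bcl2l1.

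Promoter sequence is shown for 3 genes, Bcl2l1 and Mcl1 because they were called in opposite directions in the same comparison below, and Bcl2l11 because it lay far from its group in 1 library. The sequences are the 250 bases before the transcript start nearest to the start in the counts table, from RefSeq on GRCm38.p6, 5′ to 3′ on the strand of the gene. Capitals mark matches, on either strand, to any of 6 motifs, which were the GC box with the letters GGGCGG, the CAAT box with the letters CCAAT, the TATA box with the letters TATAAA, the STAT motif with the letters TTCNNNGAA, the cyclic AMP response element with the letters TGACGTCA, and the forkhead motif with the letters GTAAACA.
Bcl2l1, chr2:152831729-152831978, minus strand: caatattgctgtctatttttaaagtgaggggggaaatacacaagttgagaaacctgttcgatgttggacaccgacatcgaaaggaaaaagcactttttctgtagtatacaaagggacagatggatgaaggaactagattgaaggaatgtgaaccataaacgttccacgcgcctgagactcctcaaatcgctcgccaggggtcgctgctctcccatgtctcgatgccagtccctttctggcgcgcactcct
Mcl1, chr3:95658471-95658720, plus strand: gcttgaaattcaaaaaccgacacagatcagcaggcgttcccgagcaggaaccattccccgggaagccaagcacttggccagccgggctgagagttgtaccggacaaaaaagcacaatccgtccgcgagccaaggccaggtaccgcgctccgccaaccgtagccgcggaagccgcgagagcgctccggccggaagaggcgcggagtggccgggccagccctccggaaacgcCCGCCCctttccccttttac
Bcl2l11, chr2:128125788-128126037, plus strand: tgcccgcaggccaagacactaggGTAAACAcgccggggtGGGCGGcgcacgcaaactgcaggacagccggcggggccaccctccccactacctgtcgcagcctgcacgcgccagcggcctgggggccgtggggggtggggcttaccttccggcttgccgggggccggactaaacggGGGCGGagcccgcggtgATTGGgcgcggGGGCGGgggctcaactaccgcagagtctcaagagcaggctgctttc

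The Bcl2l1 window held none of the 6 motifs and 47.6% G and C, the Mcl1 window 1 GC box and 64.4%, and the Bcl2l11 window 3 GC boxes, 1 CCAAT motif, 1 forkhead motif and 72.0%. Over 32851 such windows of mouse genes, 32.7% held GGGCGG, 33.8% CCAAT, 12.4% TATAAA, 7.02% TTCNNNGAA, 1.55% TGACGTCA and 3.17% GTAAACA, and the median G and C content was 52.4%. RefSeq windows were matched for 9 of the 10 genes. These are letter matches alone, and no binding was measured.

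Leptin was compared with saline after 16 days. All 10 genes passed the low-count filter, and 1 of them passed an adjusted p of 0.05, Bak1, which was higher in 16 L, whereas 8.56% of the 11723 genes tested were called and 4.06% were called higher. Bak1, 1 of the 2 pore formers, had 1.51, 1.66 and 1.16 CPM in the 3 libraries of 16 C. It had 2.90, 6.59, 24.8, 24.8 and 26.0 CPM in the 5 libraries of 16 L. Every 16 L library lay above every 16 C library, with replicate 18 the lowest of its group. The log2 fold change was 3.48 (SE 0.86, edgeR quasi-likelihood test, Benjamini-Hochberg adjusted p = 0.0402). Its adjusted p ranged from 7.7e-05 to 0.177 over the other settings, and the call was lost without any of the 3 16 C libraries, without 16 L replicate 20, 21 or 23 (highest adjusted p = 0.177 among these, edgeR) and without the low-count filter.

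Among the survival genes in the leptin comparison, the clearest difference was in Bcl2l1, which encodes the long survival form Bcl-xL. Its level was 16.7, 9.81 and 20.4 CPM in 16 C. In 16 L it was 48.7, 40.3, 25.7, 62.0 and 31.7 CPM. The groups did not overlap, but the log2 fold change of 1.43 (SE 0.43) did not pass the test (adjusted p = 0.0619, edgeR). Bcl2l1 passed under total count scaling, DESeq2, limma-voom, a filter of 10 counts in every library, 1 fit of all 34 libraries, and without 16 L replicate 18. In order, these fits called 3966 of 11723, 2629 of 11723, 7553 of 11723, 912 of 7674, 4383 of 13236 and 4635 of 11077 genes.

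Mcl1, a short-lived survival protein, was read at 101, 138 and 159 CPM in 16 C and at 58.7, 155, 281, 285 and 275 CPM in 16 L, so 1 leptin library lay below all controls. Its log2 fold change was 0.66 (SE 0.51, adjusted p = 0.390, edgeR). Bcl2 had 4.54, 1.89 and 4.63 CPM in 16 C and 26.6, 2.40, 7.41, 4.13 and 5.40 CPM in 16 L. The highest value again came from replicate 18, and the groups overlapped (log2 fold change 1.40, SE 0.88, adjusted p = 0.289, edgeR).

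Bbc3, which encodes the p53-induced BH3-only protein Puma, followed Bak1. It had 0, 1.18 and 1.54 CPM in 16 C, where a count of 0 in replicate 1 allows up to 1.68 RPM (reads relative to the library total, without TMM factors). In 16 L it had 3.07, 3.79, 5.23, 6.20 and 10.5 CPM. The groups did not overlap, and the log2 fold change was 2.43 (SE 0.83, adjusted p = 0.0865, edgeR). Non-overlap was found in 3 of the 10 genes, Bak1, Bcl2l1 and Bbc3, and in 23.4% of all genes tested.

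The remaining death genes of the leptin comparison did not pass the test. Bax had 134, 149 and 144 CPM in 16 C and 150, 48.1, 69.3, 71.6 and 104 CPM in 16 L, so 4 of 5 leptin libraries lay below the controls (log2 fold change -0.68, SE 0.40, adjusted p = 0.264, edgeR). With total count scaling the log2 fold change of Bax was 0.065, of the other sign and also uncalled. Bid, which is activated by caspase cleavage, had 26.5, 32.0 and 24.3 CPM in 16 C and 28.0, 11.4, 10.5, 7.57 and 13.8 CPM in 16 L (log2 fold change -0.94, SE 0.46, adjusted p = 0.183, edgeR). For both genes replicate 18 was the only leptin library that did not lie below all controls. Fitted values for Bad (0.46), Bcl2l11 (0.79) and Pmaip1 (1.54) had adjusted p from 0.238 to 0.522 (edgeR). The median log2 fold change of the 10 genes was 1.10, beside 0.27 for all genes tested.

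Without 16 L replicate 18, 9 of the 10 genes were tested and 6 were called, beside 41.8% of the 11077 genes tested in that fit. Bak1 (log2 fold change 3.65), Bbc3 (2.46), Bcl2l1 (1.29) and Bcl2l11 (0.99) were higher, and Bid (-1.44) and Bax (-1.05) were lower, with adjusted p from 0.00161 to 0.0271 (edgeR). Bak1 and Bbc3 also followed the first principal component in other groups. Bak1 was between 3.72 and 26.0 CPM in the 16 libraries on the high side and between 0 and 4.87 CPM in the 18 others, and Bbc3 was between 3.29 and 10.5 CPM against 0 and 5.46 CPM. The same held within 16-week CD, where replicates 1 and 2 had 5.49 and 6.66 CPM of Bak1 and the other 4 libraries 0 to 1.94 CPM. On the high side against the low side, Bax had 48.0 to 104 against 96.5 to 199 CPM and Bid 7.57 to 19.2 against 14.3 to 32.0 CPM. Pearson's r of log2(CPM + 1) with this component over the 34 libraries was 0.90 for Bak1 and 0.88 for Bbc3. It was -0.75 for Bax, -0.72 for Bid and 0.68 for Bcl2l11. For the remaining genes it lay between -0.15 and 0.50. Since all 3 16 C libraries lay on the low side and 4 of 5 16 L libraries on the high side, leptin and this axis cannot be told apart here.

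Markers of other tissues were also higher in leptin libraries besides replicate 18. The oviduct markers summed to 8.09, 1105, 1695 and 290 CPM in 16 L replicates 19, 20, 21 and 23, beside 26.5 to 108 CPM in 16 C. Replicates 20, 21 and 23 were also the 3 libraries of 16 L with the highest Bak1. The red blood cell markers summed to 1882 CPM in replicate 21 and to 1.60, 32.7 and 26.7 CPM in replicates 19, 20 and 23, beside 1.54 to 30.0 CPM in 16 C. All 4 oviduct and both red blood cell markers tested were higher in 16 L at an unadjusted p under 0.05, and 0 of them passed adjustment (edgeR). Over all genes, 3798 of 11723 had an unadjusted p under 0.05. Their part in the values of Bak1 and the other genes was not tested.

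**Figure D2:**
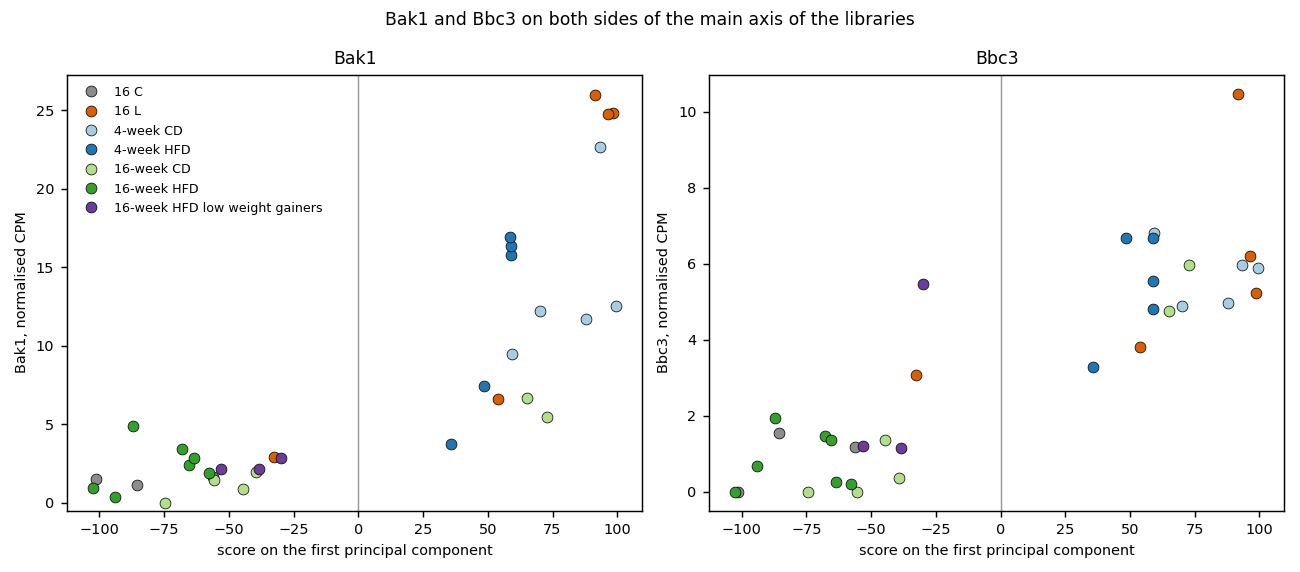
Bak1 (left) and Bbc3 (right) in normalised CPM against the score of each of the 34 libraries on the first principal component, which was computed without the 10 genes and the listed genes, with 1 colour per group and a vertical line at 0. On the left of the line Bak1 stays at or below 4.87 CPM, and on the right it reaches 26.0 CPM.

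Overlapping genes limit some of these values, because the sources used here do not say whether strand was used in counting. Bak1 (chr17:27019810-27029009, minus strand) shares up to 437 of its 2407 exonic bases with Ggnbp1 on the other strand, and Ggnbp1 itself had a log2 fold change of 0.31 (SE 0.37, adjusted p = 0.590, edgeR) in the leptin comparison. Bid shares 628 of 3550 exonic bases with Bcl2l13, whose log2 fold change was -1.03 (adjusted p = 0.206, edgeR). Bad shares 524 of 2558 bases with Gpr137, which was called higher in 16 L (2.92, adjusted p = 0.0322, edgeR). The value of Bad is therefore uncertain in this comparison.

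Among 69 other genes of the pathway, 60 were tested in the leptin comparison, of which 0 were called higher and 4 lower, and their median log2 fold change was -0.05. Of all 11723 genes tested, 4.06% were called higher and 4.5% lower, with a median of 0.27. Bnip3, a mitochondrial BH3-like protein of hypoxia and mitophagy, averaged 1545 ± 345 CPM in 16 C and 197 ± 117 CPM in 16 L (log2 fold change -2.97, SE 0.50, adjusted p = 0.0149, edgeR). Birc6, a large inhibitor of apoptosis, fell from 1662 ± 715 to 198 ± 150 CPM (-3.07, adjusted p = 0.0241). Tnfrsf10b, a death receptor, fell from 49.0 ± 4.09 to 8.11 ± 2.79 CPM (-2.61, adjusted p = 0.00981), and Cdkn1a, the p53 target that encodes p21, from 590 ± 52.9 to 162 ± 66.9 CPM (-1.87, adjusted p = 0.0270). The 4 genes that fell therefore include an inhibitor of apoptosis and genes with death-related roles.

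After 4 weeks of diet, none of the 8 genes tested was called between HFD and CD, whereas 4.26% of 11727 genes were. With an unadjusted p under 0.05 there was 1, Bid, beside 2845 of the 11727 genes. Limma-voom called Bid, beside 4048 of the 11727 genes. Bid had 14.7, 18.04, 8.34, 17.7 and 19.2 CPM in 4-week CD and 11.3, 9.08, 9.01, 11.4 and 8.77 CPM in 4-week HFD. CD replicate 2 lay below all HFD libraries and the other 4 above all of them (log2 fold change -0.69, SE 0.26, adjusted p = 0.128, edgeR). Mcl1 had a mean of 238 ± 92.5 CPM in CD and 192 ± 24.4 CPM in HFD (log2 fold change -0.33, SE 0.27). Bcl2l1, Bax, Bad, Bcl2l11, Bbc3 and Bak1 had log2 fold changes between -0.21 and 0.05, with standard errors between 0.23 and 0.39. An exact two-sided permutation test of log2(RPM + 1) gave p = 0.698 for Bcl2 and 0.619 for Pmaip1, which were below the filter (n = 5 per group).

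Both 4-week groups carried high Bak1 and Bbc3 whatever the diet. Bak1 had 9.48, 12.2, 22.6, 11.7 and 12.6 CPM in CD and 7.42, 3.72, 15.8, 16.4 and 16.9 CPM in HFD. Bbc3 had 6.80, 4.88, 5.96, 4.97 and 5.89 CPM in CD and 6.67, 3.29, 5.55, 4.80 and 6.68 CPM in HFD. The 2 diets overlapped for both genes. The 4-week and 16-week libraries were not compared directly, because time on diet and experiment cannot be told apart.

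The other pathway genes called after 4 weeks, of 56 tested, included Bcl2l2, which encodes the survival protein Bcl-w and fell from 45.2 ± 22.98 to 18.7 ± 2.81 CPM (log2 fold change -1.31, SE 0.31, adjusted p = 0.0319, edgeR). Bcl2l2 shares 594 exonic bases with the readthrough gene Gm20521 on the same strand, so its counts are uncertain.

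After 16 weeks of diet, none of the 6 genes tested was called, with 0.0276% of 10861 genes called (3 genes). None of the 6 had an unadjusted p under 0.05 in edgeR's test, whereas 2747 of the 10861 genes had. DESeq2 and limma-voom called none of the 6 either, beside 1056 and 5 of the 10861 genes. Mcl1 had a lowest, median and highest level of 76.4, 107 and 145 CPM in CD and of 117, 130 and 196 CPM in HFD (log2 fold change 0.41, SE 0.21, adjusted p = 0.212, edgeR). Bid had 12.1, 15.7 and 21.2 CPM in CD and 14.6, 24.8 and 28.0 CPM in HFD (0.46, SE 0.24, adjusted p = 0.232, edgeR). Bcl2l1 had 6.06, 22.1 and 41.0 CPM in CD and 6.99, 17.4 and 30.4 CPM in HFD. The ranges of the 2 diets overlapped for each of these genes. Without 16-week CD replicates 1 and 2 the log2 fold change of Bcl2l1 went from -0.32 to 0.49, uncalled in both fits (adjusted p = 0.690 and 0.763, edgeR). Bax (0.14), Bad (-0.01) and Bcl2l11 (-0.60) had standard errors between 0.27 and 0.42.

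The other 4 genes were too low for the fit at 16 weeks. Exact two-sided permutation tests of log2(RPM + 1) gave p = 0.237 for Bcl2, 0.682 for Bak1, 0.339 for Bbc3 and 0.490 for Pmaip1 (n = 6 and 7). Bak1 summed to 88 counts in CD and 48 in HFD, and 72 of the 88 came from CD replicates 1 and 2. Bbc3 summed to 65 counts in CD, of which 60 came from the same 2 libraries, and to 16 in HFD. In CD replicate 9 no Bak1 read was counted, which allows up to 0.63 RPM. None of the 55 other pathway genes tested was called, and 7 had an unadjusted p under 0.05.

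The low weight gainers differed from the other mice on 16 weeks of HFD in the survival genes Bcl2l1 and Mcl1, which moved in opposite directions. Bcl2l1 was higher and Mcl1 lower, and these were the 2 called of 7 genes tested, beside 20.7% of 11258 genes called, 10.8% higher and 9.93% lower. Bcl2l1 had 61.6, 48.0 and 123 CPM in the low weight gainers and a lowest, median and highest level of 6.99, 17.4 and 30.4 CPM in the 7 HFD libraries. All 3 libraries exceeded every HFD library, and replicate 23 was the highest of all 34. The log2 fold change was 2.04 (SE 0.41, adjusted p = 0.00487, edgeR), a value above 99.7% of the genes tested. It was called in each of the 17 alternative fits, with log2 fold changes from 1.53 to 2.29 and adjusted p from 8.79e-05 to 0.0485.

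Mcl1 had 94.4, 93.6 and 56.5 CPM in the low weight gainers and 117, 130 and 196 CPM as lowest, median and highest in HFD. The groups did not overlap here either, and the low weight gainers lay below every HFD library (log2 fold change -0.86, SE 0.23, adjusted p = 0.0159, edgeR). The call was lost without low weight gainer replicate 23 (-0.64, adjusted p = 0.130) and in 1 fit of all 34 libraries (-0.82, adjusted p = 0.184). Over all genes tested in this comparison, 20.4% did not overlap between the groups.

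**Figure D3:**
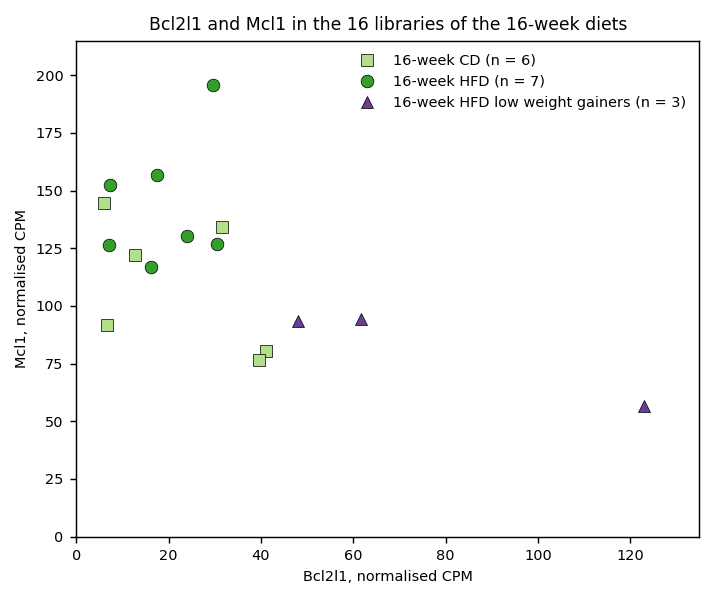
Mcl1 (vertical axis) against Bcl2l1 (horizontal axis), both in normalised CPM, in the 16 libraries of the 16-week diets, with 1 point per library and a marker shape and colour per group. The 3 low weight gainers (triangles) lie to the right of every other library, at 48.0 CPM of Bcl2l1 or more, and below all 7 HFD libraries for Mcl1.

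None of the death genes was called between low weight gainers and HFD. Bax had 169, 150 and 199 CPM in the low weight gainers and 96.5, 139 and 159 CPM as lowest, median and highest in HFD (log2 fold change 0.39, SE 0.20, adjusted p = 0.165, edgeR). Bak1, Bad, Bid and Bcl2l11 had log2 fold changes between -0.04 and 0.15 with standard errors between 0.25 and 0.58. Exact two-sided permutation tests gave p = 0.967 for Bcl2, 0.108 for Bbc3 and 0.358 for Pmaip1 (n = 3 and 7). The median log2 fold change of the 7 genes was -0.01, beside -0.03 for all genes.

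Of 24 cell markers tested in the same comparison, 4 were called, beside 20.7% of all 11258 genes tested. An unadjusted p under 0.05 was found for 9 of the 24, beside 4082 of the 11258 genes. These 9 included 6 of the 8 cumulus and granulosa markers, 2 higher and 4 lower. The macrophage and neutrophil markers summed to 290 to 370 CPM in the low weight gainers and 126 to 631 CPM in HFD, with the 8 markers of the list that are in the table read in both groups, but S100a8, a neutrophil granule gene, was called higher (log2 fold change 4.72, adjusted p = 0.0185, edgeR) and peaked at 61.1 CPM in replicate 23, where Bcl2l1 was also highest. The granulosa genes Inhba (-1.07) and Amhr2 (0.94) and the expansion gene Ptgs2 (-0.89) were also called (adjusted p = 0.0110, 0.0326 and 0.0388, edgeR). On the first principal component the low weight gainers scored -53.2 to -30.0 and HFD -102 to -57.6, without overlap. Mitochondrially encoded genes made up 0.34% to 0.61% of counts in the low weight gainers and 0.79% to 1.53% in HFD. The part of the markers, this component and the mitochondrial share in the 2 differences was not tested.

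Of 55 other pathway genes tested in this comparison, 4 were called higher, and those called lower included Xiap and Cycs. Of all genes tested, 10.8% were called higher and 9.93% lower. Xiap, an inhibitor of apoptosis, fell from 121 ± 24.98 to 41.9 ± 4.80 CPM (log2 fold change -1.57, SE 0.23, adjusted p = 0.000963, edgeR). Cycs, which encodes cytochrome c, fell from 72.5 ± 25.2 to 37.3 ± 1.45 CPM (adjusted p = 0.0188). Trp53, which encodes p53, rose from 17.1 ± 5.97 to 39.1 ± 12.0 CPM, and the adaptor Tradd from 10.9 ± 3.29 to 24.6 ± 8.11 CPM (adjusted p = 0.0118 and 0.0125). Bok, a further Bax-like gene, and Htra2, a mitochondrial protease that antagonises inhibitors of apoptosis, also rose (0.82 and 0.79, adjusted p = 0.0292 and 0.0191). Htra2 shares exonic bases with Aup1 and Loxl3 on the other strand.

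Set against 16-week CD, the low weight gainers gave 0 called genes among the 9 tested, with 1 gene in all called (0.00861% of 11620). With an unadjusted p under 0.05 there was 1 of the 9, Bcl2l1, beside 1299 of the 11620 genes. Limma-voom called Bcl2l1, whereas DESeq2 called 0 of the 9, beside 196 and 250 of the 11620 genes. Bcl2l1 had 6.06, 22.1 and 41.0 CPM as lowest, median and highest in CD, and all 3 low weight gainers lay above every CD library. The log2 fold change was 1.73 (SE 0.59, adjusted p = 0.350, edgeR), and 2.52 (SE 0.60, adjusted p = 0.148) without CD replicates 1 and 2. Mcl1 overlapped between the groups (-0.42, SE 0.30, adjusted p = 0.632, edgeR). Bid did not overlap, at 21.3 to 23.3 CPM against 12.1 to 21.2 CPM, but did not pass (0.45, SE 0.29, adjusted p = 0.588, edgeR). Over all genes tested here, 7.52% did not overlap between the groups. Pmaip1, below the filter, had p = 0.155 in the exact permutation test (n = 3 and 6). None of 57 other pathway genes was called by edgeR, and 4 had an unadjusted p under 0.05. This comparison shares its low weight gainer libraries with the preceding one.

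The difference between the diet effects at 16 and 4 weeks was tested as an interaction. None of the 9 genes tested passed, while 3.66% of 12235 genes did. The nearest was Bid, whose diet effect was 0.46 at 16 weeks and -0.69 at 4 weeks. Their difference was 1.20 (SE 0.37, adjusted p = 0.0593, edgeR), with adjusted p from 0.00701 to 0.243 over the alternatives, of which 7 called it. These 7 included DESeq2 and limma-voom, which called 1165 and 2357 of the 12235 genes. Mcl1 had a difference of 0.77 (SE 0.36, adjusted p = 0.188, edgeR). Bid and Mcl1 were the 2 genes of the 9 with an unadjusted p under 0.05, beside 2861 of the 12235 genes. Of 58 other pathway genes tested, Trp53 was called (-1.95, SE 0.51, adjusted p = 0.0336, edgeR), with a diet effect of -1.63 at 16 weeks and 0.44 at 4 weeks, neither of them called on its own.

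**Figure D4:**
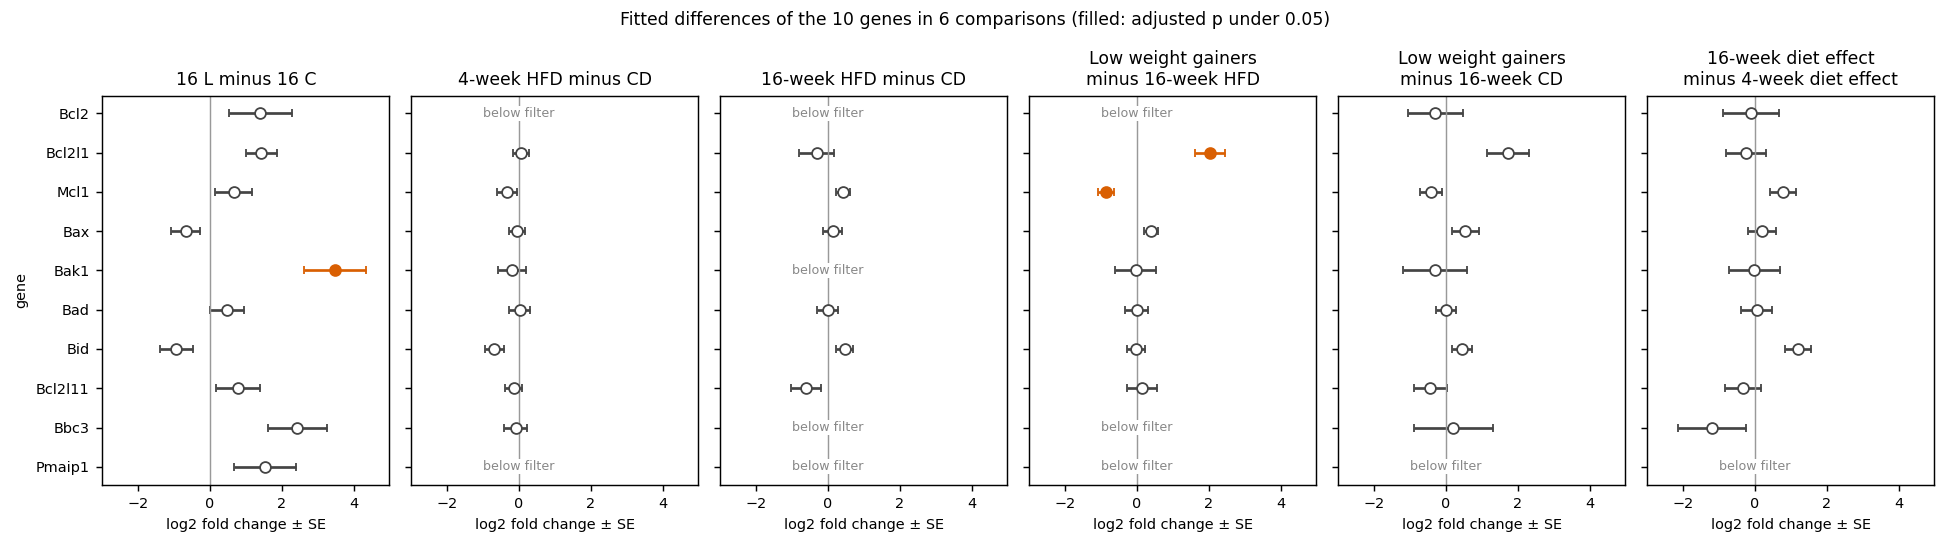
Fitted log2 fold changes (points) and standard errors (bars) of the 10 genes in 6 comparisons, 1 panel each, with genes in rows and filled orange points for an adjusted p under 0.05. Only Bak1 in 16 L and Bcl2l1 and Mcl1 in low weight gainers against 16-week HFD are filled, and genes marked below filter had too few counts to be fitted.

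A balance of survival over death transcripts was described for every library as log2 of the summed survival genes over the summed death genes, each per kb. It is a ratio of transcripts, without a test, and it was carried mostly by the 2 abundant genes, since Mcl1 made up 58.9% to 90.9% of the survival sum and Bax 63.5% to 84.7% of the death sum by group. The balance was -1.64, -1.43 and -1.10 in 16 C. In 16 L it was 0.13, 0.29, 0.33 and -0.22 in 4 libraries and -2.11 in replicate 18. Thus 4 leptin libraries lay above all controls and 1 below them. The 4-week libraries lay near 0 on this scale per kb, with 0.11 ± 0.72 in CD and -0.02 ± 0.15 in HFD (SD, n = 5 each). Which sum is the larger can depend on the division by length. Without it, the log2 ratio of Mcl1 to Bax had means of 1.65 in 4-week CD and 1.45 in 4-week HFD. It was 0.17 in 16-week HFD, -0.02 in 16-week CD and -1.11 in the low weight gainers.

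At 16 weeks the death sum per kb exceeded the survival sum per kb in every library. The balance had a mean of -1.27 ± 0.54 in CD (n = 6) and -1.10 ± 0.29 in HFD (n = 7), and overlapped between them. In the low weight gainers it was -1.62, -1.55 and -1.78, below all 7 HFD libraries. This lower balance came with lower Mcl1, and without Mcl1 in the sum the difference from HFD changed from -0.55 to 1.67. The leptin difference of 1.07 changed to 0.064 without Bax. Bax itself followed the first principal component, so leptin and that axis cannot be told apart for the balance either.

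The ratio of Bcl2 to Bax, often quoted for cell fate, rested on few Bcl2 reads. Its log2 was -4.88, -6.30 and -4.96 in 16 C and -2.50, -4.33, -3.23, -4.12 and -4.27 in 16 L, without overlap. It ranged from -8.65 to -4.37 in the libraries of the diets. The log2 ratio of Bcl2l1 to Bax had a mean of -1.26 ± 0.50 in the low weight gainers (n = 3), -2.95 ± 0.79 in 16-week HFD (n = 7) and -2.62 ± 1.87 in 16-week CD (n = 6).

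**Figure D5:**
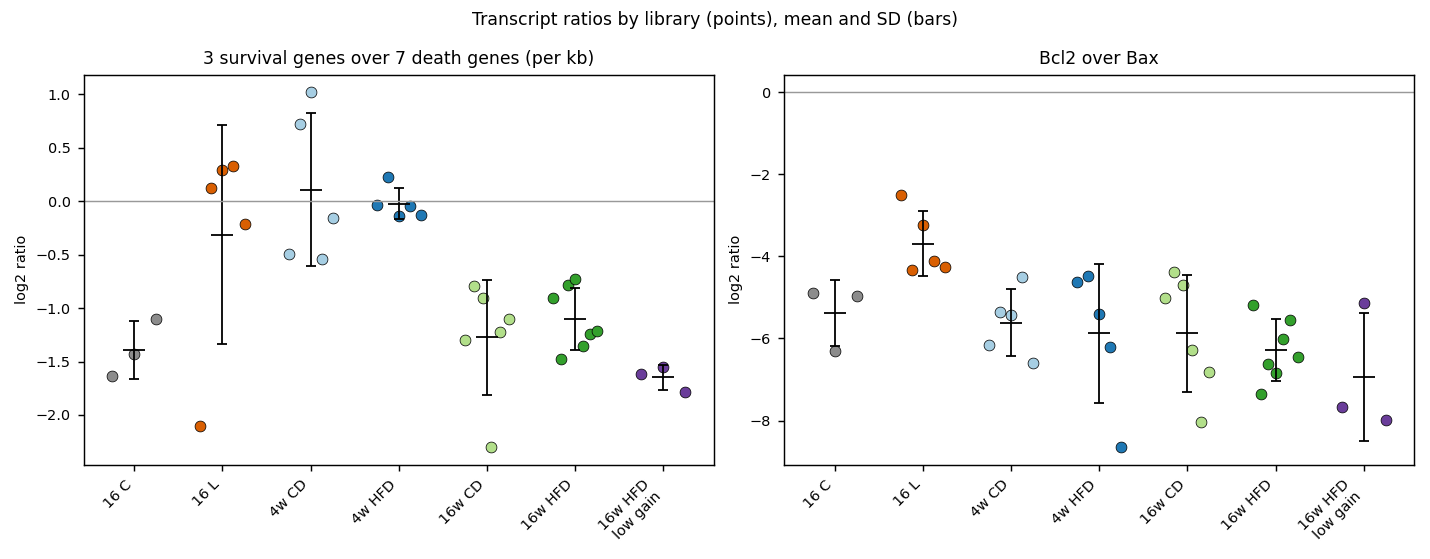
Log2 ratio of summed survival over summed death transcripts per kb (left) and of Bcl2 over Bax (right), 1 point per library in 7 groups, with horizontal bars for means and error bars for SD. The 16-week libraries lie below 0 on the left, the 4-week libraries around 0, and 16 L replicate 18 at -2.11, apart from the rest of its group.

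Within groups, the genes with a mean of at least 10 RPM were matched to their most similar genes over the 34 libraries, by Pearson's r of log2 CPM after removal of group means, among 9241 genes. The values are a description, since libraries share depth and composition. Mcl1 was most like Serpinb6a (r = 0.89), Snrpb2 (0.86) and Itm2a (0.86), and Bax most like Mrpl54 (0.91), Psme2 (0.89) and Rab24 (0.88). Bcl2l1 was most like Actn4 (0.84), Usp5 (0.83) and Oaz2 (0.81). Bcl2l11 was most like Cblb (0.84), Cables1 (0.83) and Runx1 (0.82). The nearest to Bad included Sdhc (0.77) and Mpst (0.74), and the nearest to Bid were Mtg1 (0.79), Dhrs4 (0.77) and Osgep (0.76). None of the matched genes was among these nearest genes of another. Bcl2, Bak1, Bbc3 and Pmaip1 lay below a mean of 10 RPM, so they could not appear among them. Between Mcl1 and Bcl2l1, r was -0.23 within groups.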

How the data were processed

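The authors deposited 1 table of read counts per gene for 34 CC libraries, made by Smart-seq2 with an oligo-dT primer, Nextera XT and PCR without molecular identifiers. The submitters' processing notes name Trim Galore 0.4.2, HISAT2 2.0.5 and GRCm38. The counting program, annotation and strand setting are not given in the sources used here. The deposited counts are whole numbers without normalization, and all 34 columns were used.

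Groups and replicate numbers came from the sample titles. Genes were tested two-sided with edgeR 4.0.16 in R 4.3.3 (TMM, filterByExpr, robust quasi-likelihood F-test, Benjamini-Hochberg over all genes tested, threshold 0.05), with standard errors from the log2 fold change and its F statistic, each comparison on its own groups. Totals of all counts served as library sizes. The study's methods describe a collection of cells from each animal, while the labels name neither the mouse nor a batch of a library, so p-values measure the spread between libraries, which may be in part technical. Genes below the filter had an exact permutation test of log2(RPM + 1), where RPM is reads relative to the library total. Levels are printed as CPM with TMM factors over all libraries, in place of the planned RPM, so that they match the scaling of the fits. A count of 0 allows up to 3 counts at 95% confidence, for counting error only.

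The 10 genes, the 69 pathway genes in 8 lists and the markers were chosen with earlier results of these data known. Pathway genes were named where called, at most 8 per comparison, and the 3 most similar genes were named per gene, except for items that are not reported here. Alternatives were RLE or total count scaling, no filter or 10 counts in every library, DESeq2 1.42.0, limma-voom 3.58.1 with quality weights, all 34 libraries in 1 fit, each library left out, a pseudocount of 0.1, and other sums for the balance. Leaving out 16-week CD replicates 1 and 2 together, the replicate block, and single libraries for the balance were added after seeing the data. In simulated data with 200 genes changed by a log2 fold change of 3, the fit recovered 55.5% for leptin, 96% and 93% for the diet at 4 and 16 weeks, 96% and 84.5% for low weight gainers against HFD and CD, and 83.5% for the interaction. Of the genes called in the simulation, 7.5% were unchanged genes for leptin and 7.22% for the interaction. This share was 5.88% and 1.59% for the diet at 4 and 16 weeks. For low weight gainers against HFD and CD it was 5.42% and 4.52%. Apart from Bak1 in the leptin comparison, the fitted differences of the 10 genes were smaller than 3. Recovery at those sizes was not simulated. The simulated counts were drawn for each gene on its own, without outlying libraries.

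Exon lengths came from GENCODE M21. Over 72 replicate pairs, chi-square divided by its degrees of freedom was never below 3.26, so no 2 libraries were counted as 1.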

Additional observations from a re-analysis of the deposited data

Results flagged for a closer look

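Bcl2l11, which encodes the BH3-only protein Bim, had 3.59 CPM in 16 L replicate 18, whereas the other 4 libraries of 16 L had between 28.4 and 32.4 CPM. The gap to the nearest of the others was 0.935 of the range of the group on the log2(CPM + 1) scale, above Dixon's 95% limit. The same library carried the oviduct and red blood cell markers given above (red blood cell sum 11055 CPM) and the highest Bcl2 (26.6 CPM) and Bad (59.3 CPM) of all 34 libraries, and the part of these in its low Bcl2l11 was not tested. Of 50 group and gene combinations examined, this was the only one past the limit, and chance flags about 1 in 20 groups.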

How the results depend on the processing

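Numbers of the 10 genes called kept to the reported ones in part. For leptin, where 1 gene was called, the number was 3 with total counts alone, 0 with no low-count filter, 3 with DESeq2, 7 with limma-voom and 4 in 1 fit of all 34 libraries, and 0 to 6 over the fits without 1 library. With at least 10 counts in every library 1 gene was also called, Bcl2l1, because Bak1 was then left out. Total count scaling moved the median of all genes in this comparison from 0.27 to 1.07 on the log2 scale. For the 4-week diet limma-voom called 1 gene (Bid), and for low weight gainers against 16-week CD it called 1 (Bcl2l1), against 0 reported in each. For low weight gainers against 16-week HFD the number fell from 2 to 1 in 1 fit of all libraries, and was 1 to 2 without 1 library. For the interaction 1 gene (Bid) was called with at least 10 counts in every library, DESeq2 and limma-voom, and 0 to 1 without 1 library. For the 16-week diet it was 0 in every alternative run. The cause of these changes was not tested.

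Counts of all genes called moved more. For leptin 1004 became 3966 with total counts alone, 504 with no filter, 2629 with DESeq2, 7553 with limma-voom and 4383 in 1 fit of all libraries. For the 4-week diet 499 became 1291 with DESeq2, 4048 with limma-voom and 69 in 1 fit. For the 16-week diet 3 became 1622 with total counts alone, 13 with no filter, 1 with at least 10 counts in every library, 1056 with DESeq2, 5 with limma-voom and 1258 in 1 fit. For low weight gainers against HFD 2330 became 487 in 1 fit. Against CD 1 became 0 with total counts alone and with at least 10 counts in every library, 250 with DESeq2, 196 with limma-voom and 7 in 1 fit. For the interaction 448 became 873 with total counts alone, 1165 with DESeq2, 2357 with limma-voom, 157 in 1 fit and 79 without 16-week CD replicates 1 and 2, which left 1 for the 16-week diet and 3 for low weight gainers against CD. Without 1 library the counts ranged from 30 to 4635 for leptin, where 16 C replicate 1 and 16 L replicate 18 were the libraries left out, from 8 (without CD replicate 8) to 1700 (without CD replicate 11) for the 4-week diet, from 1 to 2217 (without CD replicate 9, and 473 without CD replicate 13) for the 16-week diet, from 596 (without low weight gainer replicate 23) to 2737 for low weight gainers against HFD, from 0 to 1 against CD, and from 69 (without 4-week HFD replicate 5) to 1685 (without 16-week CD replicate 9) for the interaction. Total count scaling also moved the share of higher calls, for leptin from 476 of 1004 to 3567 of 3966, for the 4-week diet from 140 of 499 to 90 of 658, for the 16-week diet from 1 of 3 to 55 of 1622, for the interaction from 213 of 448 to 187 of 873, and for low weight gainers against HFD from 1212 of 2330 to 1583 of 2181.

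Of 951 alternative values of single genes, 914 kept their side of the threshold, 9 lost and 28 gained a call, and none that was called changed sign. In 116 of them the sign changed while neither the reported fit nor that alternative called the gene. All 10 permutation tests of genes below the filter kept their side with a pseudocount of 0.1. Each was a test of Bcl2, Bak1, Bbc3 or Pmaip1 in a single comparison. The difference in the balance moved by more than 1 SD for leptin without Bax (0.064) and for the low weight gainers without Mcl1 (1.67 against HFD, 1.43 against CD).

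The replicate block called 0 of the genes in the interaction (10 genes in all, against 448). Same-numbered libraries correlated by -0.27 to 0.13 in their deviations, so they share only a number, and the other comparisons share none. Depth limits Bcl2, Bak1, Bbc3 and Pmaip1 most, with 491, 1127, 576 and 267 counts over all libraries.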
